A study of Mus musculus with 3 samples.

Results

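The genes described here are the cytosolic ribosomal protein genes of the mouse, which encode the proteins of the small and large subunits of the ribosome. They were chosen by gene symbol: every symbol that starts with Rpl or Rps followed by a digit, plus Rplp0, Rplp1, Rplp2 and Rpsa, with at least 1 annotated protein-coding transcript, leaving out pseudogene symbols and the Rps6k kinases. This gave 86 of the 55536 genes in the tables. Of these, 77 encode proteins of the ordinary ribosome and are called core genes below: 31 of the small subunit, 43 of the large subunit and 3 of the stalk. Another 8 are paralogs of core genes, and 1 (Rps19bp1) matched by its symbol although it encodes a binding partner of Rps19 and no ribosomal protein. A further 7 symbols of the family had no protein-coding transcript and were left out.

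The RNA came from bone-marrow-derived macrophages of C57BL/6J mice, grown from marrow in culture. All libraries belong to 1 group: cells were given Lipid A at 100 ng/ml for 12 hours, were then kept without it for 12 hours after a wash, and were given Lipid A at 100 ng/ml once more for 50 minutes. Lipid A is the part of bacterial lipopolysaccharide that Toll-like receptor 4 senses. The chromatin fraction was isolated, its RNA was depleted of ribosomal RNA, and 3 total RNA libraries were sequenced from starting amounts of 1 µg (replicate 1), 250 ng (replicate 2) and 500 ng (replicate 3). No untreated group and no other fraction is among the files, so the values below are levels in 1 condition and no test between conditions was possible. In the labels each library has its own biological replicate number and all 3 have 1 donor identifier, without a word on whether animals or cultures were separate, so it is not known how much of every SD below is technical.

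A ribosome needs about 1 copy of each of its proteins, and the genes for them lie scattered over the chromosomes, each with its own promoter. Their messenger RNAs begin with a C followed by a run of pyrimidines, the 5′ terminal oligopyrimidine (TOP) tract, through which mTORC1 and Larp1 control their translation. Many of the genes carry small nucleolar RNA (snoRNA) genes in their introns, and most have processed pseudogene copies elsewhere in the genome. RNA on chromatin is mostly RNA that is being made, still holds introns, or is kept in the nucleus, so its level is not that of the messenger RNA in the cytoplasm.

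The tract was looked for at the RefSeq start sites (build GRCm38.p6), where 57 of the 77 core genes had 67 windows of 300 bases, from 250 before to 50 after the start. The tract searched was a C followed by at least 4 bases that are each C or T, read in the direction of the RNA. It began exactly at the start in 19.4% of core windows, in 0.00% of the windows of mitochondrial ribosomal protein genes, in 2.23% of the windows of protein-coding genes and in 2.51% of all windows. The windows of 6 of the 13 core genes with a tract at the start are shown, chosen for having it, as examples of what the tract looks like where it was found; each runs from 10 bases before the start to 20 after it, with the tract in capitals.

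Rps6 (chr4:86857348-86857377, minus strand): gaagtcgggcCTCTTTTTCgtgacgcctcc
Rps18 (chr17:33955646-33955675, minus strand): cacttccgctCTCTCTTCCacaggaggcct
Rps27 (chr3:90213629-90213658, minus strand): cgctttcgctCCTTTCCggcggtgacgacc
Rplp2 (chr7:141447641-141447670, plus strand): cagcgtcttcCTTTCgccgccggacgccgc
Rpl28 (chr7:4792955-4792984, plus strand): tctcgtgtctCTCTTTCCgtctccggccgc
Rpl35a (chr16:33056472-33056501, plus strand): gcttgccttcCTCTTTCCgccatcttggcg

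In a wider search the C could lie up to 5 bases from the start on either side. A match could then lie inside a longer run of pyrimidines. By that rule 27 of the 57 core genes had the tract. It was in 43.3% of core windows, 22.7% of mitochondrial ribosomal protein windows, 18.7% of the windows of protein-coding genes and 18.3% of all windows. The motif CTTCCG, the core of sites bound by ETS factors, was searched on both strands of the whole window, where copies on opposite strands can overlap. It was in 62.7% of core windows, in 53.3% of mitochondrial ribosomal protein windows, in 21.7% of the windows of protein-coding genes and in 16.9% of all windows. The letters TATAA, searched on both strands, were in 23.9% of core windows and 24.9% of all windows. They were in 13.3% of mitochondrial ribosomal protein windows and in 21.1% of the windows of protein-coding genes. The 120 bases upstream of Rps21 and Rpl37a, the core genes with most copies of CTTCCG among upstream stretches that lie almost wholly outside annotated genes, show how these copies are spaced; CTTCCG and its reverse complement are in capitals.

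Rps21 (chr2:180257259-180257378, plus strand): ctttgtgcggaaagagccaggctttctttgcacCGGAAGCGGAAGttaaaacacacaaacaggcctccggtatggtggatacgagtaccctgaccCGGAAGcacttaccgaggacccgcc
Rpl37a (chr1:72711140-72711259, plus strand): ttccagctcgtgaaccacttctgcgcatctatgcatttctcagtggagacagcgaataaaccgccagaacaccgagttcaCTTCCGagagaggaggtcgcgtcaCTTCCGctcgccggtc

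Core genes with a tract near a RefSeq start had a lower median than those without in each library. The values were 13.4, 20.0 and 17.1 TPM against 16.8, 20.6 and 20.9 in replicates 1, 2 and 3, and the difference was not tested. Start sites were not measured in these cells, so a gene called without a tract here may still have one. TPM is a level corrected for library size and transcript length. The medians were 16.8 ± 3.28 TPM for the 27 core genes with a tract near the start and 19.4 ± 2.30 for the 30 without one (mean ± SD of 3 libraries here and below unless said otherwise). With and without CTTCCG the medians were 17.6 ± 1.29 (40 genes) and 18.9 ± 4.29 (17 genes), and the sign of the difference was not the same in all 3 libraries.

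A gene is called detected where no library has it under 1 TPM. All 77 core genes were detected, and so were 4 of the 8 paralogs and Rps19bp1. By the same rule 39.2% of protein-coding genes and 20.2% of all genes were detected, and 53 of the 78 mitochondrial ribosomal protein genes. TPM is corrected for the length of annotated transcripts, so a comparison between genes also depends on which transcripts of each gene are annotated. The median level of the core genes was 14.2 TPM in replicate 1, 18.4 in replicate 2 and 17.6 in replicate 3 (mean 16.7 ± 2.23), against 9.71 ± 1.16 for detected protein-coding genes and 2.20 ± 0.662 for mitochondrial ribosomal protein genes. The median of log2(TPM + 1) over core genes lay 2.44, 2.29 and 2.71 above that of the mitochondrial family in replicates 1, 2 and 3. A mean of 10 TPM or more was found for 59 of the 77 core genes, where the share among protein-coding genes was 19.6%.

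Core genes nonetheless took a small part of this RNA. They held 0.101% ± 0.00934 of all expected counts, 0.163% ± 0.0162 of the counts of protein-coding genes and 0.572% ± 0.0881 of the TPM of protein-coding genes, and they are 0.891% of the protein-coding genes detected. In counts this was 14183, 21512 and 17641 over libraries of 13897176, 19597343 and 19348626 expected counts, and a single core gene had between 19.3 and 1206 counts on average, with a median of 144. The counting error of a core gene, from its mean count alone, had a median of 8.32%, and its coefficient of variation (CV) over the libraries had a median of 18.3%. In bulk RNA, fewer cells that express a gene and less RNA per cell cannot be told apart.

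**Figure D1:**
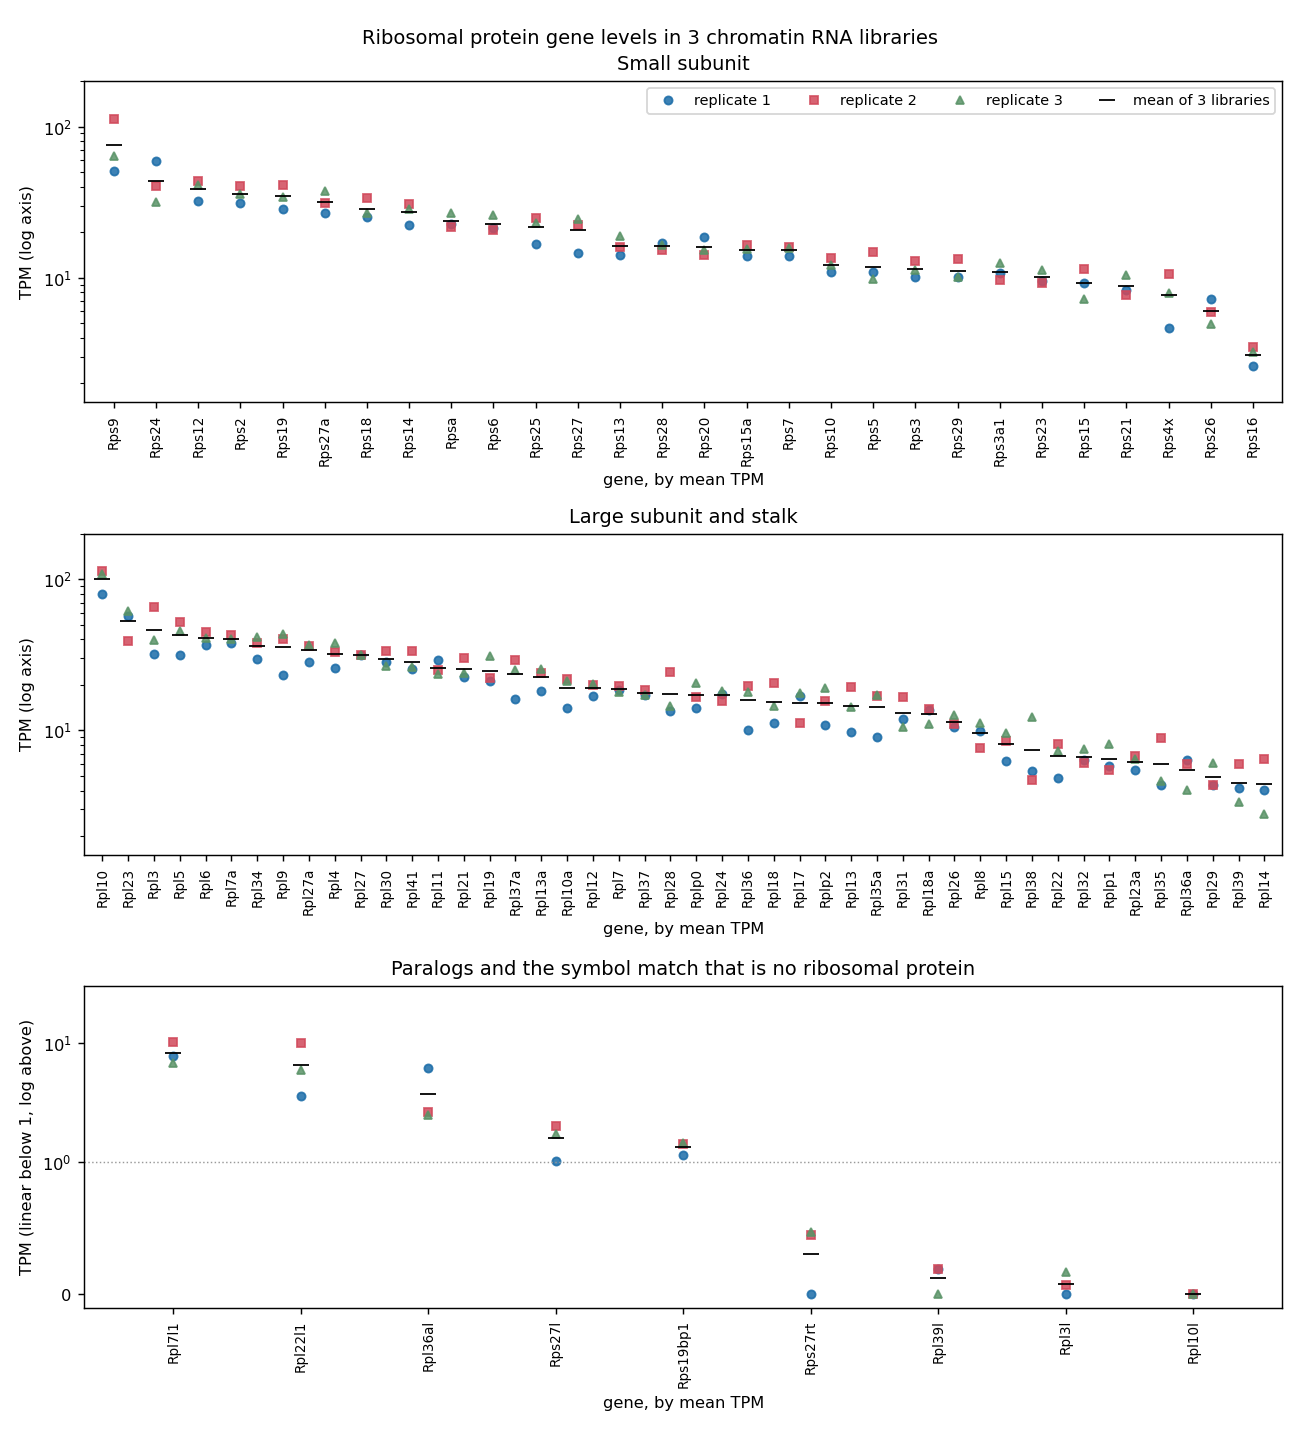
TPM of each gene in each library (points, by replicate; log axis, linear below 1 in the lowest panel) and their mean (bar), for small-subunit genes, for large-subunit and stalk genes (74 of the 77 core genes are drawn), and for paralogs with Rps19bp1. Core genes span 3.10 to 100.3 TPM; 4 of the 9 genes in the lowest panel lie under 1 TPM in every library.

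The core genes were far from equal. The highest mean (Rpl10, 100.3 TPM) was 32.4-fold above the lowest (Rps16, 3.10 TPM), where the deposited tables made directly from the reads (read-based) gave 13.9-fold between Rps9 at 79.6 TPM and Rpl14 at 5.74. By alignment, the 90th percentile of the means was 6.41-fold above the 10th. In all 76 neighbouring pairs of the order by mean, the ranges of the 3 libraries overlapped, so no gene is set apart from the next. The order as a whole was shared by the libraries: across core genes, Pearson's r of log2(TPM + 1) was 0.917 between replicates 1 and 2, 0.935 between 1 and 3, and 0.927 between 2 and 3. These points share libraries, gene lengths and depth, and genes are not independent replicates.

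Among small-subunit genes Rps9, whose protein binds ribosomal RNA early in assembly, had the highest mean at 51.2, 112.1 and 63.6 TPM in replicates 1, 2 and 3 (75.6 ± 32.2). Replicate 2 stood above the other two libraries, and even the lowest value was above the range of most other small-subunit genes. Rps24, a gene mutated in some families with Diamond-Blackfan anaemia, had 58.8, 40.6 and 31.9 TPM (43.7 ± 13.7), with the order of the libraries different from that of Rps9. Rps12 followed at 38.9 ± 6.14 TPM. Rps2, which lies at the mRNA entry channel, had 36.0 ± 4.53 TPM, and Rps19, the gene most often mutated in Diamond-Blackfan anaemia, 34.7 ± 6.33. The ranges of these last 3 genes overlapped one another.

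The lowest small-subunit gene was Rps16, whose protein reaches the decoding site, at 2.59, 3.46 and 3.24 TPM (3.10 ± 0.452) from a mean of 23.9 counts. All 3 of its values lay below those of every other small-subunit gene, but the read-based tables put it at 8.13 ± 1.51 TPM, above Rps26 at 7.19 ± 1.19. Other low small-subunit genes were Rps26 at 6.03 ± 1.16 TPM, Rps4x, the X-linked gene for Rps4, at 7.73 ± 2.93 TPM, and Rps21 at 8.78 ± 1.44 TPM. Rps6, the protein that S6 kinases phosphorylate downstream of mTORC1, had 21.3, 20.7 and 26.1 TPM (22.7 ± 2.96). Rps3, a protein of the mRNA entry channel, had 10.2, 12.8 and 11.3 TPM (11.4 ± 1.35). Rps27a, which is made as a fusion with ubiquitin, had 27.0, 31.3 and 37.4 TPM (31.9 ± 5.25).

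Among large-subunit genes Rpl10, a protein that joins the subunit last and sits next to the site of peptide bond formation, had 79.8, 113.0 and 108.2 TPM (100.3 ± 18.0). It was the highest core gene in each library, and the range of only 1 other core gene overlapped its range, that of Rps9. Rpl23, a protein of the face between the subunits, had 56.9, 39.0 and 62.0 TPM (52.6 ± 12.1) and was lowest in replicate 2. Rpl3, which reaches toward the peptidyl transferase centre, had 32.2, 65.6 and 39.9 TPM (45.9 ± 17.5) and was highest there. Rpl5, which with Rpl11 can bind Mdm2, the ubiquitin ligase of p53, had 31.3, 52.1 and 45.5 TPM (43.0 ± 10.6), and Rpl6 had 40.5 ± 3.95 TPM. Rpl11 itself had 29.4, 25.1 and 23.6 TPM (26.0 ± 3.05), and Rpl13a, known in myeloid cells as a part of a complex that silences inflammatory messenger RNAs, had 18.1, 24.1 and 25.6 TPM (22.6 ± 3.96).

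The low end of the large subunit held Rpl14 at 4.02, 6.49 and 2.81 TPM (4.44 ± 1.88), Rpl39, a small protein of the peptide exit tunnel, at 4.49 ± 1.36, Rpl29 at 4.94 ± 0.993, Rpl36a at 5.47 ± 1.26 and Rpl35 at 5.99 ± 2.55. The ranges of these 5 genes overlapped, so their order is not resolved. The median small-subunit gene lay 0.26, 0.30 and 0.21 below the median large-subunit gene on the log2(TPM + 1) scale in replicates 1, 2 and 3. That difference went to 0.04 ± 0.08 the other way when only protein-coding transcripts were summed.

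The stalk recruits the elongation factors to the ribosome. Rplp0, its anchor, had 14.2, 16.6 and 20.7 TPM (17.2 ± 3.30), Rplp2 had 10.8, 15.6 and 19.0 TPM (15.1 ± 4.12), and Rplp1 had 5.79, 5.43 and 8.12 TPM (6.45 ± 1.46). By gene level Rplp1 was below both partners in every library, although the ribosome holds as many copies of Rplp1 as of Rplp2. Transcripts annotated as retaining an intron held 67.8% ± 22.3 of the TPM of Rplp2 and none of that of Rplp1. In protein-coding transcripts alone, Rplp1 at 6.45 ± 1.46 TPM was not below Rplp2 at 5.24 ± 4.83. Rplp0 stayed above both at 14.5 ± 4.65.

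Among paralogs, Rpl7l1 was the highest at 7.84, 10.2 and 6.81 TPM (8.28 ± 1.73), below its relative Rpl7 at 18.7 ± 0.944. Rpl22l1 had 3.58, 10.1 and 5.94 TPM (6.54 ± 3.30), beside Rpl22 at 4.86, 8.08 and 7.36 TPM (6.77 ± 1.69), and the 2 ranges overlapped; the posterior mean TPM of Rpl22l1 in the deposited tables was far higher, 29.2 ± 8.49. Rpl36al had 6.12, 2.62 and 2.50 TPM (3.75 ± 2.06), which overlapped Rpl36a. Rps27l, a gene known to respond to p53, had 1.60 ± 0.513 TPM from 5 to 9 counts, and Rps19bp1 had 1.34 ± 0.170 TPM. Rpl3l, the muscle form of Rpl3, had 0.0800 ± 0.0854 TPM, Rpl39l, a form known from testis, 0.127 ± 0.110, and Rps27rt 0.307 ± 0.266, each from at most about 1 count per library. Rpl10l, the testis form of Rpl10, had 0 counts in all 3 libraries, which allows up to 0.259, 0.217 and 0.233 TPM in replicates 1, 2 and 3 (3 counts, for counting error only).

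The spread between libraries differed from gene to gene. Of the core genes with a mean of at least 50 counts, Rps9 (CV 42.6%) and Rpl14 (CV 42.2%) were among those that varied most. The smallest spread was that of Rpl27, at 31.5, 31.6 and 31.5 TPM (CV 0.160%), below its own counting error of 7.26%, and Rpl37 (CV 3.99%) and Rpl7 (CV 5.07%) came next. The CV was above the counting error for 64 of the 77 core genes, and for 93.7% of detected protein-coding genes, whose counts differ from those of core genes. The median CV of detected protein-coding genes was 22.7%, and it was 21.9% for the 6515 of them that lay within the level range of the core genes.

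By TPM, 42 core genes were highest in replicate 2, 28 in replicate 3 and 7 in replicate 1, and among detected protein-coding genes the shares were 55.7%, 21.9% and 22.4%. The lowest value was in replicate 1 for 47 core genes, in replicate 2 for 14 and in replicate 3 for 16, against 50.5%, 20.3% and 29.2% of detected protein-coding genes. With counts scaled by library size and TMM factors, the numbers of core genes highest in replicates 2, 3 and 1 became 20, 24 and 33, against 39.9%, 30.3% and 29.8% of detected protein-coding genes. Which library was highest therefore depended on the scaling. Starting amount and library cannot be told apart.

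The transcript tables split the level of each gene over its annotated transcripts, and in core genes the largest part fell to transcripts annotated as retaining an intron. The 77 core genes have 473 annotated transcripts: 218 protein-coding, 171 with a retained intron, 61 classed as processed transcripts, which have no annotated reading frame, and 23 classed as targets of nonsense-mediated decay. In the median core gene 52.3% ± 4.72 of the TPM was in retained-intron transcripts and 32.3% ± 3.74 in protein-coding transcripts. In detected protein-coding genes the medians were 26.0% ± 3.50 and 56.3% ± 3.39. Core genes carry such transcripts in the annotation more often (79.2% against 66.1%), so the shares were also compared only among genes that have one. There the medians were 62.2% ± 3.37 for 61 core genes, 53.1% ± 5.16 for 36 detected mitochondrial ribosomal protein genes and 43.6% ± 3.56 for 5705 detected protein-coding genes.

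**Figure D2:**
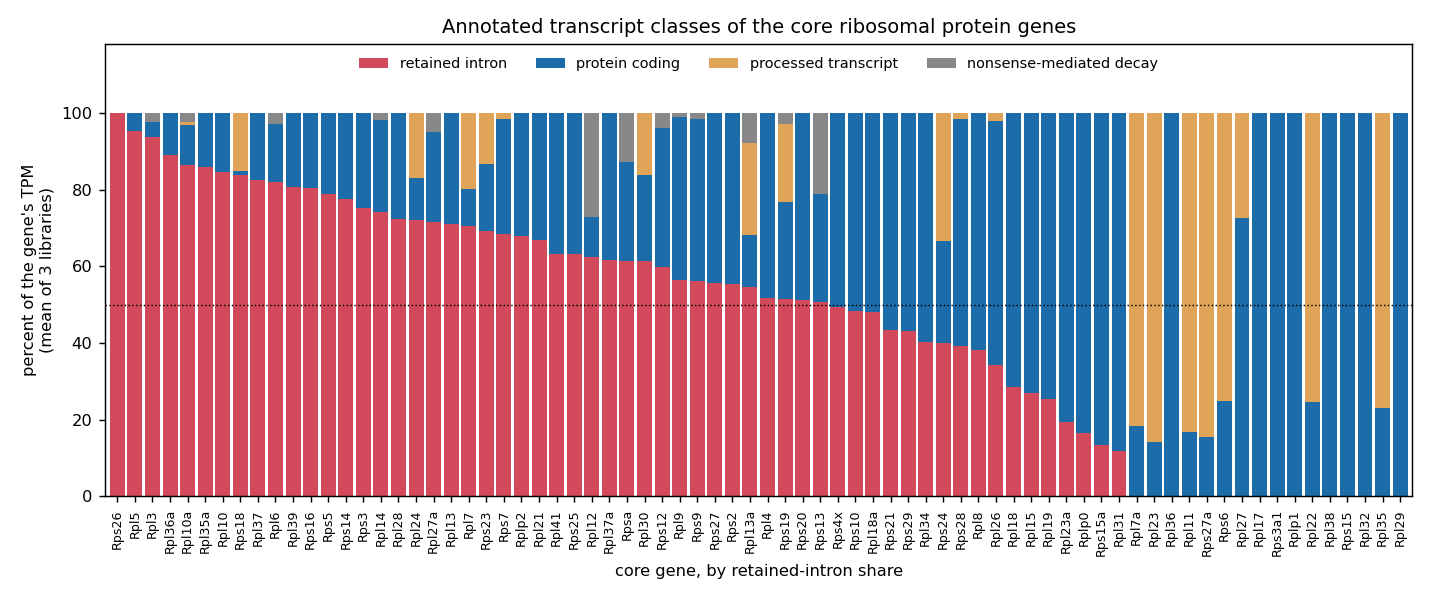
Share of TPM in 4 annotated transcript classes (stacked bars, mean of 3 libraries, percent) for 74 of the 77 core genes, ordered by the retained-intron share. The dotted line marks 50 percent: of all 77 core genes, 42 have more than that in retained-intron transcripts, 26 in protein-coding transcripts and 8 in processed transcripts.

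By alignment, retained-intron transcripts held over 50% of the TPM in 42 of the 77 core genes, and in 35 of them in every library. Single genes crossed 50% in either direction in the read-based tables. In Rpl35a the share was 85.8% ± 1.44 by alignment and 19.4% ± 6.42 by reads. In Rps21 it was 43.5% ± 1.98 by alignment and 57.1% ± 5.44 by reads. The share of detected protein-coding genes past 50% by alignment was 25.8%, or 39.1% of those with such a transcript. Rps26, at the mRNA exit of the small subunit, had 100% in retained-intron transcripts in both sets of tables, so none of its 6.03 TPM was assigned to a protein-coding transcript. Rpl5 followed with 95.2% ± 2.99, Rpl3 with 93.7% ± 1.19, Rpl36a with 89.2% ± 11.5 and Rpl10a with 86.4% ± 10.4. Rpl10 had 84.7% ± 4.44, and its most abundant transcript, a retained-intron form 531 bases long, alone held 27.3%, 33.4% and 30.2% of the gene in replicates 1, 2 and 3.

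At the other end, 16 core genes have no annotated retained-intron transcript and so stand at 0%. Of the rest, Rpl31 (11.8% ± 6.79), Rps15a (13.4% ± 5.01) and Rplp0 (16.6% ± 12.4) had the lowest shares. In 8 core genes most of the TPM was in processed transcripts, among them Rps27a, Rpl22, Rps6, Rpl11, Rpl7a, Rpl23 and Rpl35, where the share of detected protein-coding genes was 4.68%. In 26 core genes most was in protein-coding transcripts, where that share was 57.8%. In Rpl23, the third highest core gene, 1 such transcript of 658 bases held 46.6%, 49.4% and 52.1% of the TPM. In Rps27a a processed transcript of 681 bases held 34.1%, 37.5% and 39.8%.

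Counting only protein-coding transcripts changed the order of the genes. The median core gene then had 6.09 ± 0.672 TPM, and 65 of the 77 had at least 1 TPM in every library, where the share of protein-coding genes was 33.7%. Rps9 came first at 31.4 ± 11.2 TPM, Rpl27, in place 17 among core genes by gene level, came second at 22.9 TPM, and Rpl10 went from first to ninth at 14.9 ± 1.29 TPM. Spearman's rho between this order and that of the gene level was 0.457 across the 77 core genes, which share libraries and annotation. The division of reads among overlapping transcripts is an estimate, and the annotated classes say nothing of whether an RNA is later spliced.

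The 2 sets of deposited tables, made from alignments and directly from the reads, gave the same broad order (Pearson's r 0.833 and Spearman's rho 0.808 across core genes, which share the libraries). The read-based level was 1.28-fold above the alignment-based one in the median core gene, close to the 1.30-fold of detected protein-coding genes. It was higher in every library for 50 core genes, where the share of detected protein-coding genes was 70.1%, and lower in every library for 10, where that share was 11.0%. More than 2-fold higher were 8 core genes against a share of 17.3%.

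**Figure D3:**
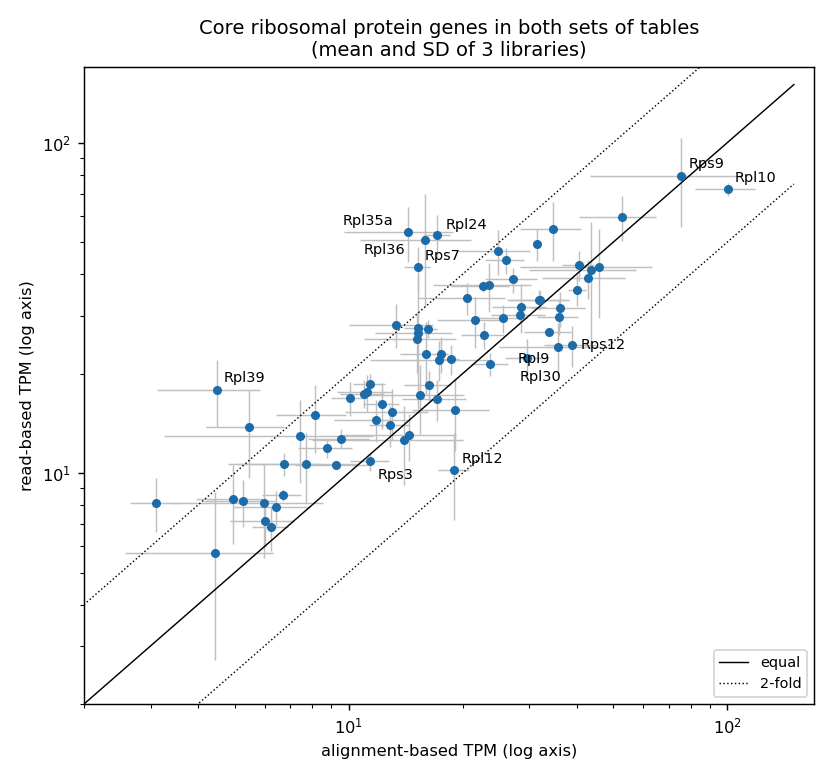
Read-based against alignment-based TPM of the 77 core genes (points are means and bars are SDs of 3 libraries; both axes log), with lines at equality and at 2-fold. Rpl39, Rpl35a, Rpl36, Rpl24 and Rps7 lie above the upper 2-fold line, and Rpl12, Rps12, Rpl9, Rpl10 and Rpl30 are the lowest relative to equality.

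Rpl39 went from 4.49 ± 1.36 TPM by alignment to 17.9 ± 4.08 by reads (3.99-fold), Rpl35a from 14.3 ± 4.59 to 53.7 ± 10.1 (3.75-fold), Rpl36 from 15.9 ± 5.17 to 50.9 ± 19.0 (3.21-fold), Rpl24 from 17.1 ± 1.39 to 52.7 ± 7.95 (3.08-fold) and Rps7 from 15.2 ± 1.17 to 42.0 ± 6.44 (2.76-fold). The libraries of the 2 sets did not overlap for any of these 5 genes. Rpl12 was lower by reads, at 6.85, 12.7 and 11.2 TPM against 16.9, 20.0 and 20.2 by alignment (1.86-fold). Rps12 was 1.59-fold lower, Rpl9 1.48-fold, Rpl10 1.39-fold and Rpl30 1.33-fold. For Rpl10 this puts the read-based mean at 72.2 ± 3.13 TPM, below that of Rps9 at 79.6 ± 24.0.

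Reads of near-identical sequence can be assigned to a gene or to its pseudogene copy. A search of the annotated transcripts with each core coding sequence (at least 90% identity over at least 80% of its length) found 940 pseudogene copies of 70 of the 77 core genes, with a median of 9 per gene and 76 each for Rpl7a and Rpl21. Only 205 of them carry a family name with the suffix -ps. Together the copies held 20.9% ± 4.59 of the expected counts of core genes plus copies, and 25.7% ± 2.78 in the read-based tables. Across core genes, Spearman's rho between the number of copies and the ratio of the 2 sets of tables was -0.0738, as a description.

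Most copies had no reads: 627 of the 940 had 0 counts in every library and 98 were detected. Most of the detected copies lay inside other detected genes. Of the 98, 82 (83.7%) lay wholly within a detected protein-coding gene, against 163 (17.3%) of all 940 and 19 (3.03%) of the 627 with 0 counts. Copies inside such genes held 80.7% of the expected counts of all copies. Of the 98, 60 (61.2%) were on the strand opposite to the gene around them and 22 (22.4%) on the same strand. Among all 940 copies the numbers were 115 and 48, and among the 627 with 0 counts 6 and 13. The sources used here do not give whether the counting used strand, so reads of a copy and of the gene around it cannot be told apart.

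The copy with the most counts was Gm6341 (chr7:101154645-101155055), a processed pseudogene of Rpl27, a large-subunit protein. It lies on the strand opposite to Fchsd2, a gene at 283 TPM, and had 134.6, 80.9 and 106.8 TPM, above the 31.5 to 31.6 TPM of Rpl27 in every library. Gm11425 (chr11:83027500-83027997), a copy of Rpl12 and inside no protein-coding gene, had 344, 204 and 173 counts where Rpl12 had 209, 311 and 250. How little separates these copies from their parents is seen in the 90 coding bases that hold the most differences, with the differing bases in capitals. Over the whole coding sequence Gm6341 differs from Rpl27 at 6 of 408 bases and Gm11425 from Rpl12 at 4 of 495.

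Rpl27, coding bases 1 to 90: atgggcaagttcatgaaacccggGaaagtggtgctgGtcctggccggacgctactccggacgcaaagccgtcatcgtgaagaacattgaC
Gm6341: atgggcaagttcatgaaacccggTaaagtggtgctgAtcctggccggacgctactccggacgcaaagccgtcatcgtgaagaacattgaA
Rpl12, coding bases 136 to 225: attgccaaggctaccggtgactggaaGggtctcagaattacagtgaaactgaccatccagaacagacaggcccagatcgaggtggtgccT
Gm11425: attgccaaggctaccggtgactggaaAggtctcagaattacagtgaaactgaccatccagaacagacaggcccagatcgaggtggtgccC

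**Figure D4:**
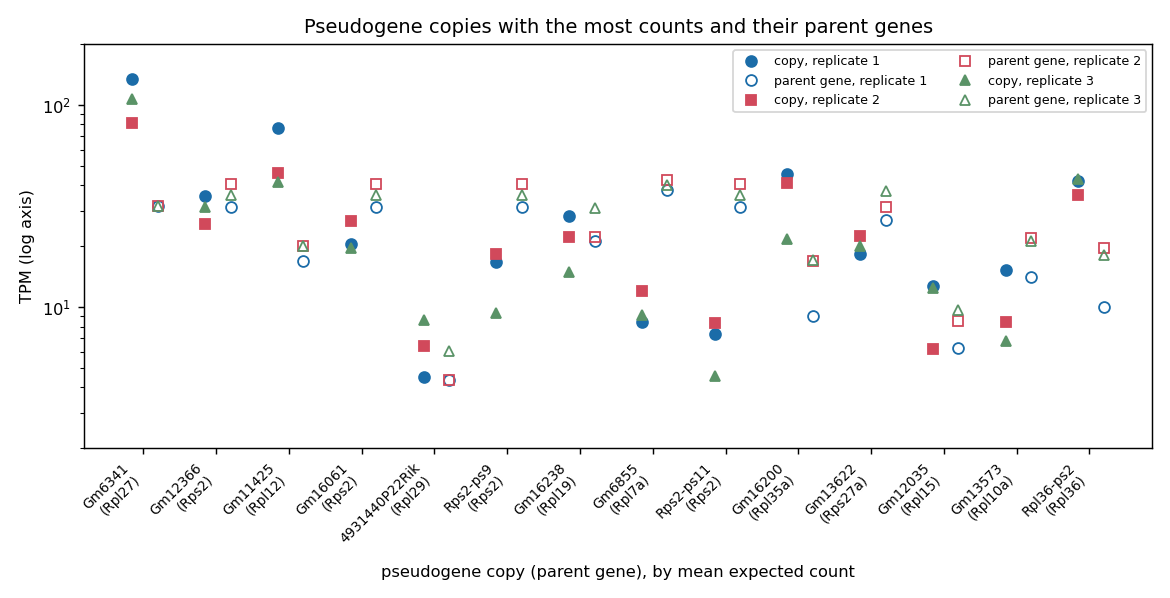
TPM (log axis) in each library of 14 of the pseudogene copies with the most expected counts (filled) and of the core gene each copies (open, same shapes by replicate). Gm6341, Gm11425, Gm16200, Rpl36-ps2 and 4931440P22Rik lie above their parents Rpl27, Rpl12, Rpl35a, Rpl36 and Rpl29 in every library, and the other 9 do not. The annotated gene 4931440P22Rik spans chr3:65507257-65529379, so its level is not that of its Rpl29-like part alone.

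Rps2 had several copies with many counts, of which Gm12366, on the same strand as C9orf72, had 338, 285 and 323 counts where Rps2 had 238, 377 and 334. Apart from copies, 25 of the 77 core genes overlap another gene that is no small RNA, 18 of them a protein-coding gene, among them Rpl3, Rpl5 and Rpl12. The share over all genes is not given here, so these counts are no trait of the family. In Rpl3, Rpl5 and Rpl12 the shared part is only an end of the gene, with the other gene on the opposite strand. In Rpl13, Rpl13a and Rps10 the overlapping protein-coding gene is on the same strand, and Rpl13 lies wholly within Gm20388. Strand could not separate the reads of those shared parts. Rpl13a had 22.6 ± 3.96 TPM by alignment, a posterior mean of 30.3 ± 6.20 and 36.8 ± 1.39 by reads. Elsewhere, reads of a shared part cannot be told apart if strand was not used.

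Intronic snoRNA genes are a second product of these loci. Within the bounds of the 86 genes and on their strand lay 58 annotated snoRNA genes in 30 core genes, which is 39.0% of the core genes against 2.32% of detected protein-coding genes. The tables made by alignment give 36 of the 58 an effective length of 0, at which no level can be estimated, so counts from the read-based tables were used for them. In those, 41 had counts in every library and 9 had none in any library. Most of these 9 are wholly covered by an exon of the gene that holds them, so their reads can count toward that gene. A count of 0 there does not mean that the snoRNA is absent.

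Rps3 carries Snord15a and Snord15b, and Rpl5 carries Snord21, all of the C/D class that guides methylation of ribosomal RNA. These 3 had 68.7% ± 10.1 of all read-based counts of the 58, and their sequences are shown for that reason. The sequences come from the GENCODE M21 transcripts on build GRCm38. Capitals mark the first TGATGA (letters of the C box) and the last CTGA (letters of the D box). They were found by their letters alone, and whether they are the boxes in use was not tested.

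Snord15a (chr7:99482785-99482932, minus strand): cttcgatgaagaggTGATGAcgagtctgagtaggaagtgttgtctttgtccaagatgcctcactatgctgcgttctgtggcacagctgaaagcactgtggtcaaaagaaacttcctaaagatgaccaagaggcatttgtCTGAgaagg
Snord15b (chr7:99479563-99479707, minus strand): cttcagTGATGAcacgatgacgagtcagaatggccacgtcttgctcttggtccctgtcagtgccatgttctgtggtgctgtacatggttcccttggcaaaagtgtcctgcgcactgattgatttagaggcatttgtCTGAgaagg
Snord21 (chr5:107904555-107904648, plus strand): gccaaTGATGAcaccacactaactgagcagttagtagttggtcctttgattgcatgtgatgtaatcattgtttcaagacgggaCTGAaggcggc

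Snord15b had 4349, 2078 and 1714 read-based counts in replicates 1, 2 and 3, and its host Rps3 (chr7:99477896-99483738) had 414, 766 and 585. It was the only hosted snoRNA with more counts than its host in every library. Scaled by each library's total over annotated genes (CPM), Snord15b was at 212, 59.5 and 52.3 and Rps3 at 20.1, 21.9 and 17.8, so the snoRNA was highest in replicate 1 while the host was nearly level. Snord21 had 1198, 485 and 517 counts against 443, 885 and 669 for Rpl5, and Snord15a had 762, 751 and 496. Gm26448 in Rpsa had 489, 438 and 275 counts and Gm26202 in Rpl17 had 119, 202 and 206. Of the 58 snoRNA genes, 26 are wholly covered by an exon of a host transcript, Snord15b and Snord21 among them through a retained-intron transcript, so their reads can also count toward the host.

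**Figure D5:**
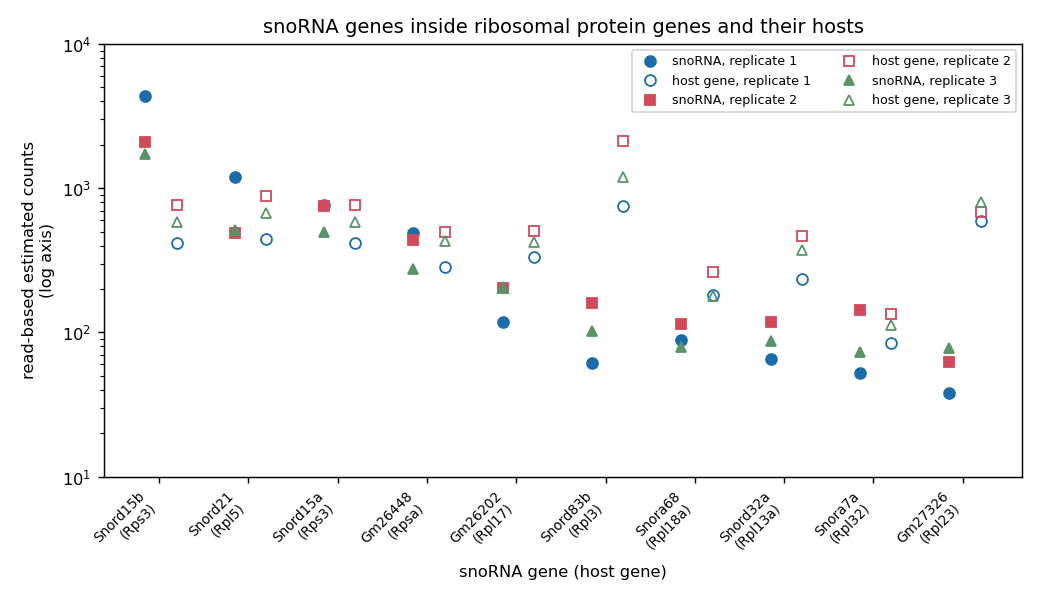
Read-based estimated counts (log axis) in each library of the 10 snoRNA genes with the most counts inside ribosomal protein genes (filled) and of their host genes (open, same shapes by replicate). Snord15b lies above Rps3 in every library, and Snord21, Snord15a, Gm26448 and Snora7a lie above their hosts in some libraries and below in others.

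The hosts as a group had a median of 19.1 ± 1.27 TPM and the 47 other core genes 15.3 ± 1.67. On the log2(TPM + 1) scale the difference of the medians was 0.31 ± 0.06, and it went to -0.0029 ± 0.08 with protein-coding transcripts alone. The median retained-intron share was 62.7% ± 3.54 in hosts and 44.2% ± 2.74 in the other core genes. Both medians include genes with no annotated retained-intron transcript, whose share is fixed at 0%, so the annotation enters this difference. The part of the snoRNA reads in the level of their hosts was not tested.

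Genes around the family were read for context from lists chosen with earlier results known. Fau, a small-subunit protein made as a fusion, had 22.3 ± 6.12 TPM, and Rack1, the receptor on the small subunit, 29.0 ± 3.90; both lay inside the range of the core genes. All 22 other TOP messenger RNA genes were detected; their median was 17.2 TPM and they ran from Eef1d at 4.27 ± 1.93 to the elongation factor Eef1a1 at 275 ± 26.9. The helicase Eif4a2 at 222 ± 54.6 TPM and the poly(A)-binding protein Pabpc1 at 177 ± 15.9 were next, all 3 above every core gene. Of 32 ribosome assembly genes 26 were detected; the list's median was 6.95 TPM, and it was led by Sbds (86.1 ± 16.0), Ncl (35.8 ± 10.2) and Gnl3 (34.6 ± 4.14), with Bysl lowest at 0.603 ± 0.0815.

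Of 20 genes of mTORC1 and its control over TOP messenger RNAs or of the ribosomal stress pathway 19 were detected, and the list's median was 16.6 TPM. Mdm2 was highest at 493, 398 and 639 TPM (510 ± 121), followed by the p53 target Cdkn1a (163 ± 24.4) and Mxd1 (93.6 ± 35.7), and the translation repressor Eif4ebp1 was lowest at 1.16 ± 0.0971. Larp1, which binds the TOP tract, had 37.8 ± 10.9 TPM. Of 14 genes of ribosome quality control 12 were found and 10 detected; the list's median was 11.0 TPM, and it was led by Ascc3 (164 ± 17.9), Nemf (61.6 ± 14.7) and Ascc2 (41.1 ± 10.8), with Otud3 lowest at 0.607 ± 0.185.

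The labelled cell type was checked against marker genes. Of 12 macrophage markers 11 were detected; their list's median was 49.6 TPM and Adgre1 was highest at 418 ± 109, followed by Msr1 (255. ± 55.2) and Lyz2 (188. ± 26.1), with Cebpa lowest at 0.290 ± 0.105. Of the markers of other cells, none of 8 for neutrophils, 5 for B cells and 5 for dendritic cells was detected, and 1 of 6 for T cells, 1 of 5 for erythroid cells and 1 of 6 for stromal or endothelial cells. The summed level over each of these 6 lists was between 0.0200 and 10.2 TPM in every library by alignment. By reads the sums were 0.530 to 25.3 TPM, highest for T cells, where 3 of 6 markers were detected and Cd3d, at 0 by alignment, had 15.7 ± 3.18 TPM. Also detected by reads were 1 of 8 neutrophil markers, 1 of 5 dendritic, 1 of 5 erythroid and 2 of 6 stromal or endothelial markers; the part of these cells in the results was not tested. Summed macrophage markers were at 1191 to 1463 TPM by alignment and 1378 to 1939 by reads. In the chi-square test of core gene counts between pairs of libraries the statistic was 6.93 to 9.58 times its degrees of freedom, so no 2 libraries agreed within counting noise.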

How the data were processed

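Chromatin RNA of 3 libraries was measured by total RNA sequencing. The notes deposited beside the tables name mm10 as the mouse build and GENCODE M21 as its annotation. The sources used here do not give the programs or whether strand was used. In their column layout the deposited tables match RSEM (alignment-based gene and transcript tables) and kallisto (read-based transcript tables). The authors' deposited expected counts are estimated reads or fragments per gene or transcript, and their deposited TPM values are corrected for effective length. The deposited bounds of a credible interval for TPM, a signal whose level is not given, were not printed. Transcript values were summed per gene for the read-based tables.

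Levels are means with SDs over 3 libraries of the alignment-based TPM. With 1 group no test between conditions was run; a chi-square statistic compared the counts of pairs of libraries. A gene with no library under 1 TPM was called detected, and a pseudocount of 1 was added on the log2 scale. Protein-coding genes numbered 22028. Copies were found with blastn 2.17.0, TMM factors came from edgeR 4.0.16 (R 4.3.3) on rounded expected counts, and the rest was computed with Python 3.11.15, pandas 2.3.3 and numpy 2.4.6. The procedures were tested on simulated data. Promoter windows were RefSeq's. Intervals and limits from a count of 0 cover counting error only.

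Members and lists were chosen with earlier results of these data known. The genes named were set by rule: the 5 highest and 5 lowest of each subunit, the stalk genes, every paralog, Rps19bp1, any core gene under 1 TPM in a library (there was none), the 3 highest and 3 lowest CVs with at least 50 mean counts, the 5 largest and 5 smallest ratios between tables, the 5 largest and 3 smallest retained-intron shares, the 5 highest hosted snoRNAs, the 3 highest and the lowest of each other list (for markers of other cells only counts and sums are given), and Rpl13a, Rps3, Rps6, Rpl5, Rpl11, Rps19 and Rps27a. Members of the processed-transcript group, the parents of paralogs, Larp1, copies and genes around copies were named after their values were seen. So were Rpl13, Rps10 and Gm20388, for their overlaps. A few genes that the rule names, and copies of them, are not reported here by name; they are left out of plots that label every gene.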

Additional observations from a re-analysis of the deposited data

How the results depend on the processing

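No paired analysis was possible because the libraries form 1 group. All 77 core genes stayed detected without replicates 1, 2 or 3 in turn. Leaving out 1 library gave a median level of 15.9 to 18.0 TPM, a share of counts of 0.0966% to 0.106%, a small-minus-large difference of -0.28 to -0.23, a difference from mitochondrial ribosomal protein genes of 2.37 to 2.57, a retained-intron share of 50.1% to 54.8% and a median CV of 12.9% to 19.2%. With the read-based tables the median level was 21.6 TPM, the small-minus-large difference -0.20, the mitochondrial difference 2.09, the difference between snoRNA hosts and other core genes 0.13, the retained-intron share 44.3%, the share of reads in -ps entries 6.53% and the median CV 14.4%, and 13 genes were highest in replicate 1. With protein-coding transcripts alone the median level was 6.09 TPM, the small-minus-large difference turned to 0.039, the mitochondrial difference was 1.67 and the host difference turned to -0.0029. With counts scaled only by library size these 3 differences were -0.12, 1.68 and 1.01, and 31 genes were highest in replicate 1 and 8 in replicate 3; with TMM factors 33 were highest in replicate 1 and 20 in replicate 2, against 7, 42 and 28 by TPM. With posterior mean TPM the first 2 differences were -0.12 and 2.21, and with means in place of medians -0.10 and 2.21. The mitochondrial difference was 2.90 with a pseudocount of 0.1 and 2.19 among genes with at least 1 TPM. The core share was 0.163% of protein-coding counts and 0.162% of all TPM; by an alternative chosen after seeing the data it was 0.572% of protein-coding TPM. The -ps entries held 4.74% of expected counts and 12.2% of TPM, and copies by sequence, also added afterwards, 20.9%. Also added afterwards, the retained-intron share was 62.2% in genes with such a transcript. The log2 ratio between tables was 0.35, or 0.31 with a pseudocount of 1. Single levels moved by more than 1 SD for 50 of 86 genes with the read-based tables, 69 with protein-coding transcripts alone and 10 with posterior means. The cause of these changes was not tested. Genes with few counts are limited by depth.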
